A study of Mus musculus with 6 samples.

Results

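Fatty acid and triglyceride synthesis and storage were examined in mouse liver through 43 genes, taken by name along the route from citrate to the lipid droplet. A gene counted when Affymetrix probe sets were annotated with its symbol and no other, and the probe set with the highest mean over the 6 arrays stood for it. All 43 had such a probe set, of 18193 genes that did. The mean signal of 41 lay above the filter on dim probe sets, which passed 12705 genes to the test, and Pnpla3 and Cidea lay below it.

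Liver RNA was compared between 3 Retnla-Tg mice (Tg 5, Tg 6 and Tg 7), which carry a transgene for Retnla, and 3 Retnla-non-Tg mice, numbered non-Tg 1 to non-Tg 3, which do not. The product of Retnla is RELM alpha, a hormone-like protein related to resistin. All 6 mice were males of the C57BL6/J background aged 3 months. They had been moved from standard chow at 8 weeks of age to a high-fat diet (HFD) with 21% fat and 0.15% cholesterol, which they ate for 4 weeks. The labels number the samples without saying that each is a separate animal. Each is called a mouse here. The limma p-values set a group difference against the variation between these samples, moderated over all genes. The sources used here do not give the promoter of the transgene, the number of founder lines, or whether mice shared a litter or a cage. Retnla itself was at log2 signals of 15.91 to 16.04 in Tg livers and 6.03 to 7.41 in non-Tg livers. Of 8 hepatocyte markers 7 had a probe set, all above the filter, with summed log2 signals of 18.66 to 18.72 in Tg and 18.56 to 18.68 in non-Tg livers. The brightest markers dominate that sum. Among the 7, Tat was higher in Tg livers without overlap, by 1.12 on the log2 scale (limma adjusted p = 0.468), and the groups overlapped for the others. Exocrine pancreas markers, 4 of 5 measured, were all higher in Tg livers (sums of 11.32 to 11.90 against 10.72 to 11.67). Only 2 of them lay above the filter. Prss2 did so only through the Tg group, with a non-Tg mean of 5.13, and Cela1 differed by 0.16 with overlapping groups.

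Hepatocytes make fatty acids from cytosolic acetyl-CoA, lengthen and desaturate them, join them to glycerol 3-phosphate, and either secrete the triglyceride in lipoproteins or keep it in droplets. Insulin and dietary sugar raise the enzymes of synthesis through the transcription factors SREBP-1c and ChREBP, and oxysterols act through the receptor LXR on SREBP-1c. Droplets are coated by perilipins and CIDE proteins, and lipases with their inhibitors decide how fast the stored fat is used. On a diet rich in fat, much of the liver's triglyceride is built from fatty acids that arrive from food and adipose tissue.

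No gene of the 43 passed the test between Tg and non-Tg livers. In limma, with Benjamini-Hochberg adjustment over 12705 genes, 0 of the 41 tested genes had an adjusted p under 0.05, where 0.0157% of all tested genes did. That share was 2 genes, both higher in Tg livers, and without the filter the 2 that passed were Nnt and Retnla. Whether the groups differ in genetic background beyond the transgene was not tested. At an unadjusted p under 0.05 the count was 7 of 41 (Srebf1, Pparg, Mid1ip1, Acly, Acacb, Elovl7 and Plin5), 17.1%, against 6.05% of all tested genes; 4 were higher and 3 lower in Tg livers, beside 2.93% and 3.12% of all tested genes. Elovl7 passed the filter only through the Tg group, where it was higher, and with the filter at the 70th percentile the count was 6 of 35, beside 7.37%. The 43 genes were chosen with earlier results of these data known. A count above the share of all genes can therefore come from that choice. The groups did not overlap for 6 of 41 (Srebf1, Pparg, Mid1ip1, Acly, Acacb and Lpin2), 14.6%, against 11.7% of all tested genes; 3 were higher and 3 lower, beside 6.04% and 5.64%. The median log2 difference, Tg minus non-Tg, was 0.05 over the 43 genes, with 23 higher and 20 lower in Tg livers, and 0.03 over all 18193 genes. With each array centred on its median, which moves all genes by -0.07, the split of the 43 was 16 higher and 27 lower. The steps of the pathway lay on different sides of 0: the 5 regulators had a median of -0.41 and the 6 genes of de novo synthesis one of 0.13. With 3 mice against 3, the exact permutation test of a single gene cannot give a p below 0.1.

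**Figure D1:**
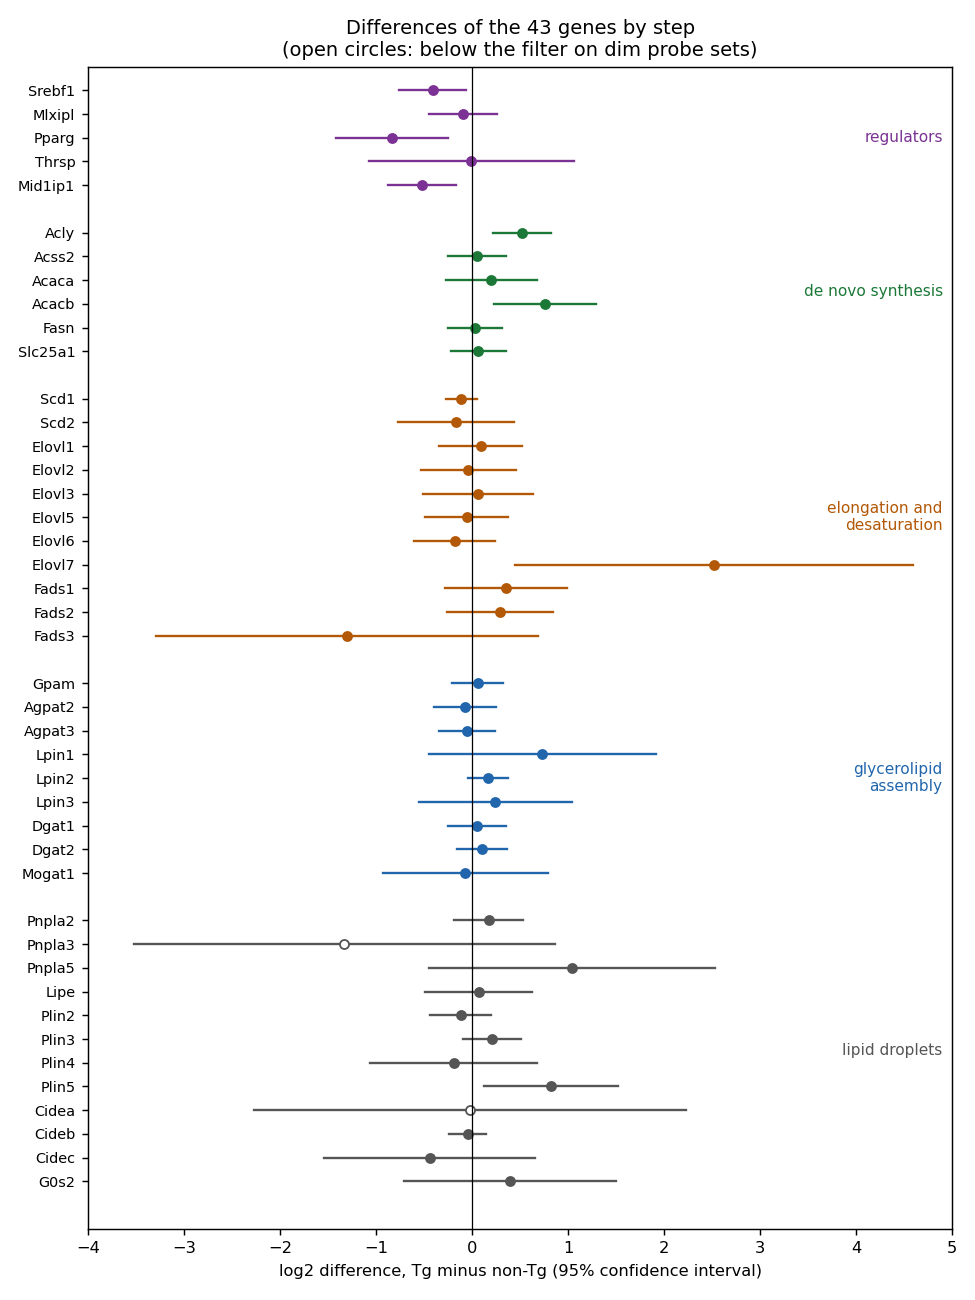
Each row is 1 gene; the point is the log2 difference (Tg minus non-Tg) and the line its 95% confidence interval from limma, coloured by step, with open circles for the 2 genes below the filter. The regulators lie at or left of 0 and the genes of de novo synthesis right of it, and the widest intervals belong to genes of low signal such as Elovl7, Fads3 and Pnpla3.

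Among the regulators, the 3 with no overlap were all lower in Tg livers. Srebf1 encodes SREBP-1, the transcription factor that drives fatty acid synthesis genes after insulin. Its log2 signals were 13.31, 12.87 and 13.29 in Tg 5, Tg 6 and Tg 7, against 13.53, 13.85 and 13.33 in non-Tg 1, non-Tg 2 and non-Tg 3. Every Tg value lay below every non-Tg value, but the gap between the groups was 0.02, far less than the spread inside either. The log2 difference was -0.41 ± 0.16 (SE; n = 3 each), 0.752-fold with a 95% confidence interval of 0.590 to 0.959, and did not pass (limma adjusted p = 0.787). In bulk liver, fewer cells that express a gene and less RNA per cell cannot be told apart.

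Srebf1 has 3 annotated transcription starts in RefSeq (GRCm38.p6), and which transcripts its probe set reads was not examined. The start that lies farthest downstream is the one known for SREBP-1c, and its promoter holds a known response element for LXR. The promoter of Fasn, fatty acid synthase, holds a known LXR element too, so both are printed here, as the 250 bases before the start on the gene's strand. The promoters of Acly and Acacb, the genes of de novo synthesis with the largest differences, follow for comparison. Capitals mark letters of the motifs searched on both strands.
Srebf1, chr11:60210472-60210721, minus strand: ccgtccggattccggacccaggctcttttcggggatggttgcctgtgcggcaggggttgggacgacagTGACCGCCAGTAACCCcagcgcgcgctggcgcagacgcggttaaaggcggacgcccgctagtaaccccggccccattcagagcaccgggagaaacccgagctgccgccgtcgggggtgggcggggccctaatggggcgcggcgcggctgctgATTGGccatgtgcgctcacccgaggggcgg
Fasn, chr11:120824548-120824797, minus strand: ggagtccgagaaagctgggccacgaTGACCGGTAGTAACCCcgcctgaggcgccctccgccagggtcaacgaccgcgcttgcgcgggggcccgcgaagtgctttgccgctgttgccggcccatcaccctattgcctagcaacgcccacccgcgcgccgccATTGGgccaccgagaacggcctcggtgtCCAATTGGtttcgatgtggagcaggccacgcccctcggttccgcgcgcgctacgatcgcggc
Acly, chr11:100528001-100528250, minus strand: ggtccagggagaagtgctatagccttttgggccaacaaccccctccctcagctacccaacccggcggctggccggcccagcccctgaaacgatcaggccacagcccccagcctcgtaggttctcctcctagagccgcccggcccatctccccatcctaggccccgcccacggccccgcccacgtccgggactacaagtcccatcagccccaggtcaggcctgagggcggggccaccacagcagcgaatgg
Acacb, chr5:114165268-114165517, plus strand: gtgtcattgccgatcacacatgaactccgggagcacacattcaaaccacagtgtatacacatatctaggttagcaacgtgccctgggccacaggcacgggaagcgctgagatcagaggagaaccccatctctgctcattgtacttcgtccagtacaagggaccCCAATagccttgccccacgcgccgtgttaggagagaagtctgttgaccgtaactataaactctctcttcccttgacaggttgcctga

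The LXR letters searched were GGGTTA, then any 4 bases, then CGGTCA, on either strand. They were written from the elements known in these promoters, so that a match in Srebf1 and Fasn was built into the search. They occurred in 3 of 32851 promoter windows, 0.00913%, and 2 of the 3 were those of Srebf1 and Fasn. The CCAAT box, CCAAT on either strand, occurred in 33.8% of all windows and in 42% of the 50 windows found for 36 of the 43 genes. It was present in the printed windows of Srebf1, Fasn and Acacb and its letters were not in that of Acly. The E-box CACGTG, which ChREBP and other factors bind, occurred in 12% of the 50 windows and 6.02% of all. The sterol regulatory element that SREBP binds was searched as TCAC, any base and CCAC, and occurred in 1 of the 50 windows, that of Mlxipl, and in 1.05% of all. The PPAR element, AGGTCA repeated after any 1 base, occurred in 0 of the 50 and in 0.0335% of all. Beside the LXR motif stand the levels of Nr1h3, which encodes LXR alpha, at 10.84, 10.86 and 10.95 in Tg livers and 10.60, 10.62 and 10.53 in non-Tg livers. LXR alpha RNA thus differed by 0.30 ± 0.11 on the log2 scale (SE), with an adjusted p of 0.787 in limma. In the same livers Srebf1 was lower, Nr1h3 higher and Fasn within 0.03 of equal, and none of the 3 passed.

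Pparg encodes PPAR gamma, a nuclear receptor of adipocytes that liver makes more of when it stores fat. Its log2 signals were 7.63, 8.39 and 7.65 in Tg 5, Tg 6 and Tg 7, against 8.80, 8.46 and 8.92 in non-Tg 1, non-Tg 2 and non-Tg 3. The gap between the groups, from Tg 6 to non-Tg 2, was 0.06, and the other 4 livers were well apart. The log2 difference was -0.84 ± 0.26 (SE; n = 3 each), 0.560-fold with a 95% confidence interval of 0.375 to 0.838, and the limma adjusted p was 0.735. Markers of other cells that express Pparg were read beside it. Of 8 adipocyte markers 5 had a probe set and 1, Fabp4, lay above the filter; their summed log2 signal was 9.78 to 10.21 in Tg and 9.58 to 10.73 in non-Tg livers. Adipoq, the adipocyte hormone adiponectin, lay below the filter in both groups, at 1.12 to 1.51 in Tg and 2.25 to 5.27 in non-Tg livers. The 6 macrophage markers were all higher in Tg livers. They summed to 13.75 to 15.17 in Tg and 14.08 to 14.28 in non-Tg livers, and all 6 were highest in Tg 6, the Tg mouse with the most Pparg signal. The direction rests on that liver: without Tg 6, the Tg mean of every macrophage marker but Adgre1 lay below the non-Tg mean. Of 6 stellate cell markers 4 were lower and 2 higher in Tg livers, with sums of 12.03 to 12.55 in Tg and 12.28 to 12.82 in non-Tg livers. Lrat, which stores retinol as ester in stellate cells, and Reln, reelin, were lower without overlap, at -0.93 ± 0.26 and -0.52 ± 0.17 (SE), while Rgs5, a pericyte gene, was at 0.81 ± 0.24 (SE). None of the 3 passed, and the part of these cell types in the Pparg difference was not tested.

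Mid1ip1 and Thrsp encode a pair of related small proteins that bind each other and modulate acetyl-CoA carboxylase. Mid1ip1 was at 11.15, 10.67 and 11.09 in Tg livers and 11.43, 11.71 and 11.33 in non-Tg livers, with every Tg value below every non-Tg value. Its log2 difference was -0.52 ± 0.16 (SE; n = 3 each), 0.698-fold, with a limma adjusted p of 0.735. In both Srebf1 and Mid1ip1, Tg 6 was the lowest and non-Tg 2 the highest of the 6 livers. Thrsp spread far more between mice: 12.60, 14.35 and 14.54 in Tg 5, Tg 6 and Tg 7, against 13.41, 13.49 and 14.62 in non-Tg 1, non-Tg 2 and non-Tg 3. Its difference was -0.01 with a 95% confidence interval of -1.08 to 1.06, so 1 log2 unit in either direction lies inside it. Mlxipl, which encodes ChREBP, the factor that answers to glucose, was at 12.72 to 13.22 in Tg and 12.75 to 13.24 in non-Tg livers, a difference of -0.10 ± 0.16 (SE). All 5 regulators were lower as deposited and with each array centred on its median, and 4 of 5 after quantile normalization, where Thrsp changed sign. It was also 4 of 5 when Tg 5, Tg 7, non-Tg 2 or non-Tg 3 was left out. Thrsp changed sign without Tg 5 or non-Tg 3, and Mlxipl without Tg 7 or non-Tg 2.

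**Figure D2:**
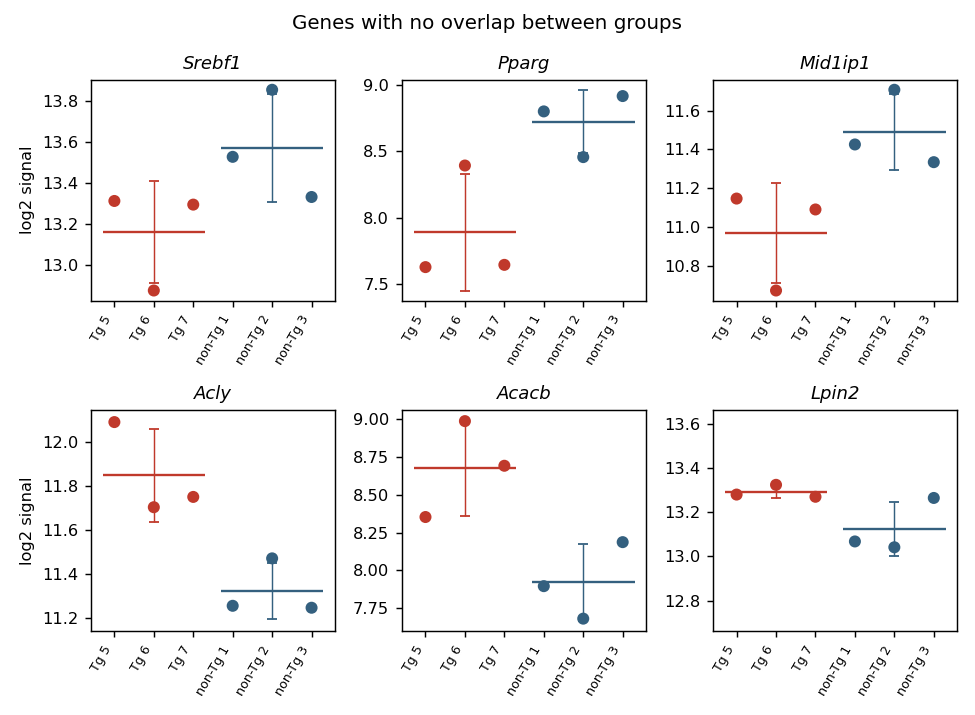
Points are the log2 signals of the 6 livers for the 6 genes whose groups do not overlap, Tg in red on the left and non-Tg in blue on the right; lines are group means and bars 1 SD (n = 3). Srebf1, Pparg and Mid1ip1 are lower in Tg livers, Acly, Acacb and Lpin2 higher, and in Srebf1 and Lpin2 the nearest values of the groups almost meet.

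De novo synthesis starts when citrate leaves the mitochondrion and is split into acetyl-CoA. Slc25a1, the citrate carrier, was at 12.46, 12.35 and 12.09 in Tg livers and 12.41, 12.15 and 12.15 in non-Tg livers. The values interleaved and differed by 0.06 ± 0.13 (SE). Acly, ATP citrate lyase, makes cytosolic acetyl-CoA from citrate, and had the smallest limma p of the 41 tested genes. It was at 12.09, 11.70 and 11.75 in Tg 5, Tg 6 and Tg 7, against 11.26, 11.47 and 11.25 in non-Tg 1, non-Tg 2 and non-Tg 3. Every Tg value lay above every non-Tg value, and the log2 difference was 0.52 ± 0.13 (SE; n = 3 each), 1.44-fold with a 95% confidence interval of 1.17 to 1.77 (limma adjusted p = 0.735). The other Acly probe sets above the filter gave 0.33, 0.27, 0.08 and -0.43, each with overlapping groups, and with the mean of the kept probe sets the Acly difference was 0.15. The size for Acly thus rests on 1 probe set. Acss2, which makes acetyl-CoA from acetate, differed by 0.05 ± 0.13 (SE).

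Acetyl-CoA carboxylase turns acetyl-CoA into malonyl-CoA. Acacb encodes the form at the mitochondrial surface, whose malonyl-CoA restrains the uptake of fatty acids for oxidation. Its log2 signals were 8.35, 8.99 and 8.69 in Tg 5, Tg 6 and Tg 7, against 7.90, 7.68 and 8.19 in non-Tg 1, non-Tg 2 and non-Tg 3. No values overlapped, and the difference was 0.76 ± 0.24 (SE; n = 3 each), 1.69-fold with a 95% confidence interval of 1.17 to 2.44 (limma adjusted p = 0.735). The second Acacb probe set lay below the filter and gave -0.52. Acaca, the cytosolic form that feeds synthesis, was at 9.48 to 10.29 in Tg and 9.45 to 9.86 in non-Tg livers, a difference of 0.20 ± 0.21 (SE). Tg 5 was the highest liver for Acaca, and without it the difference was -0.0016.

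Fasn, which assembles palmitate from malonyl-CoA, was at 11.04, 11.12 and 11.27 in Tg livers and 11.12, 10.96 and 11.26 in non-Tg livers. The groups overlapped fully, and the difference of 0.03 had a 95% confidence interval of -0.25 to 0.31. All 6 genes of the step were higher in Tg livers as deposited and after quantile normalization. With each array centred on its median, which moves the difference of all genes by -0.07, 3 were higher and 3 lower. When Tg 5, Tg 7 or non-Tg 2 was left out, 4 were higher and 2 lower.

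**Figure D3:**
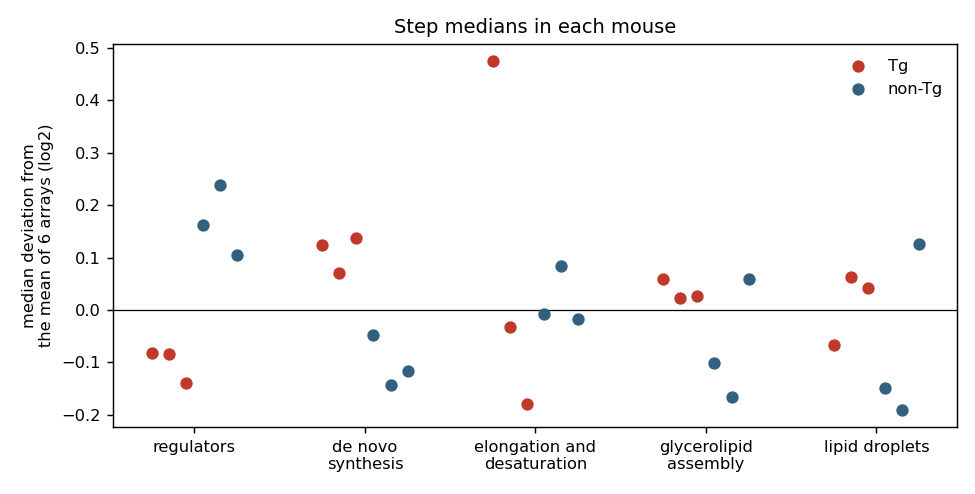
For each step and liver the point is the median, over the genes of that step, of the log2 deviation from the gene's mean over the 6 arrays, Tg in red and left of non-Tg in blue. In the regulators the 3 Tg livers lie between -0.14 and -0.08 and the non-Tg livers between 0.10 and 0.24; Tg 5 stands alone at 0.47 in elongation and desaturation.

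Desaturases and elongases set the chain length and the double bonds of the fatty acids. Over the 11 genes of this step the median difference was -0.04, with 5 higher and 6 lower in Tg livers, and its sign depended on the mice and probe sets used. Scd1, the main hepatic enzyme that makes oleate from stearate, was at 16.12, 15.99 and 16.02 in Tg livers and 16.09, 16.13 and 16.25 in non-Tg livers. The values overlapped, and the difference was -0.11 ± 0.07 (SE; limma adjusted p = 0.826). These signals lie near the top of the arrays' range, whose highest signals were 16.64 to 16.80, and saturation was not tested. A second Scd1 probe set, at a mean of 13.49, gave -0.10. Scd2, a neighbour of Scd1 on chromosome 19 and the form known from brain, was at 7.68 to 8.61 in Tg and 8.12 to 8.42 in non-Tg livers. Its probe sets disagreed: the brightest differed by -0.17 and a dimmer one, at a mean of 5.78, by 1.20 without overlap. That dimmer probe set passed the filter only through the Tg group, where it was higher. Another Scd2 probe set, below the filter, gave 0.26.

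Fads1 and Fads2 encode the delta-5 and delta-6 desaturases that build arachidonic and docosahexaenoic acid, and they lie side by side on chromosome 19 with Fads3. Fads1 was at 13.45, 12.17 and 12.27 in Tg 5, Tg 6 and Tg 7, against 12.18, 12.21 and 12.43 in non-Tg 1, non-Tg 2 and non-Tg 3. Fads2 was at 13.14, 12.37 and 11.93 in the same Tg livers, against 12.19, 12.25 and 12.12 in the non-Tg livers. For both genes Tg 5 stood well above the other 5 livers, and the remaining Tg livers lay in or close to the non-Tg range. The differences of 0.36 for Fads1 and 0.29 for Fads2 became -0.05 and -0.04 without Tg 5. The other Fads2 probe sets gave 0.27 and 0.30, close to that of the brightest.

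Elovl2, which lengthens polyunsaturated fatty acids, was also highest in Tg 5, at 13.81, 12.84 and 12.87 in Tg 5, Tg 6 and Tg 7, against 13.20, 13.28 and 13.15 in the non-Tg livers. Its difference was -0.04 with all mice and -0.36 without Tg 5, when the groups no longer overlapped. Elovl5, which acts on shorter polyunsaturated chains, differed by -0.06 ± 0.19 (SE), and its second probe set gave 0.24. Elovl6, which lengthens palmitate to stearate, differed by -0.18 ± 0.19 (SE), with the other probe sets at -0.25 and -0.37. Elovl1, which makes very long saturated chains, differed by 0.09, and Elovl3, whose level in liver depends on sex and the clock, by 0.06. In each of these 4 genes the groups overlapped.

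Elovl7 and Fads3 were dim genes whose means over the 6 arrays lay just above the filter, at the 41.8th and 40.9th percentile of all probe sets. Elovl7, an elongase of saturated chains, was at 6.31, 7.28 and 7.46 in Tg livers and 6.60, 3.01 and 3.88 in non-Tg livers. Non-Tg 1 lay inside the Tg range, and the difference was 2.52 ± 0.93 (SE; limma adjusted p = 0.787), or 1.02 once 64 was added to every signal before taking logs. Other Elovl7 probe sets, all below the filter, ran from -1.15 to 1.73. Fads3 was at 6.24, 5.86 and 3.02 in Tg livers and 6.02 to 6.72 in non-Tg livers, and its difference of -1.30 became -0.29 without Tg 7. With means of 5.04 in Tg and 6.34 in non-Tg livers, Fads3 passed the filter (5.63) only through the non-Tg group, where it was higher.

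Glycerolipid assembly joins 3 acyl chains to glycerol 3-phosphate, and 9 genes were read, with a median difference of 0.06. Gpam, the mitochondrial acyltransferase of the first step, was at 12.44 to 12.72 in Tg and 12.43 to 12.73 in non-Tg livers, a difference of 0.06 with a 95% confidence interval of -0.21 to 0.32. Agpat2 and Agpat3, which add the second chain, differed by -0.07 ± 0.14 and -0.06 ± 0.13 (SE). Dgat2, which completes triglyceride from newly made fatty acids, was at 14.18, 13.94 and 13.81 in Tg livers and 14.05, 13.85 and 13.73 in non-Tg livers. The values interleaved, and the difference was 0.10 with a 95% confidence interval of -0.16 to 0.36. Dgat1, the form linked to fatty acids from outside the cell, differed by 0.05 with an interval of -0.25 to 0.35. Mogat1, which acylates monoacylglycerol, differed by -0.07 ± 0.38 (SE). For Gpam, Dgat1 and Dgat2 a change of 1.5-fold or more thus lies outside the interval of these 6 livers, while for Mogat1 it does not.

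Lipins remove phosphate from phosphatidate to give diacylglycerol. Lpin2 was at 13.28, 13.32 and 13.27 in Tg livers and 13.07, 13.04 and 13.27 in non-Tg livers. The groups did not overlap, though Tg 7 and non-Tg 3 differed by less than 0.01, and the difference was 0.17 ± 0.09 (SE; limma adjusted p = 0.820). The other Lpin2 probe sets gave 0.21, 0.26 and 0.33. Lpin1, which also acts as a coactivator in fasted liver, spread widely: 12.10, 14.34 and 14.14 in Tg 5, Tg 6 and Tg 7, against 12.31, 12.53 and 13.54 in non-Tg 1, non-Tg 2 and non-Tg 3. Tg 5 was the lowest and the other 2 Tg livers the highest of the 6. The difference was 0.73 ± 0.53 (SE; limma adjusted p = 0.838) and became 1.45 without Tg 5, with an adjusted p of 0.295. Over all runs that left out a mouse it ran from 0.326 to 1.45. Lpin3 differed by 0.24 ± 0.36 (SE).

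At the lipid droplet, the largest difference among the brighter genes was that of Plin5, a perilipin that ties droplets to mitochondria. Its log2 signals were 11.03, 12.28 and 12.14 in Tg 5, Tg 6 and Tg 7, against 10.63, 10.93 and 11.42 in non-Tg 1, non-Tg 2 and non-Tg 3. Tg 5 lay inside the non-Tg range and the other Tg livers above it. The difference was 0.82 ± 0.31 (SE; n = 3 each), 1.77-fold with a 95% confidence interval of 1.09 to 2.87 (limma adjusted p = 0.787), and a second probe set gave 0.74. Without Tg 5 it was 1.22, with an adjusted p of 0.136, the lowest of any of the 43 genes in the alternatives run. Tg 5 was singled out after its values were seen. Over all runs that left out a mouse, the Plin5 difference ran from 0.595 to 1.22, and limma adjusted p reached 0.996 among the alternatives. Plin4, next to Plin5 on chromosome 17 and best known from adipocytes, differed by -0.19 ± 0.39 (SE).

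Plin2, the main perilipin of hepatocytes, whose protein level tracks stored fat, was at 13.75, 13.52 and 13.75 in Tg livers and 13.46, 13.88 and 14.03 in non-Tg livers. The groups overlapped, with a difference of -0.12 and a 95% confidence interval of -0.44 to 0.20. Plin3, a perilipin found in every tissue, was at 10.09 to 10.34 in Tg and 9.98 to 10.10 in non-Tg livers, a difference of 0.20 ± 0.14 (SE). Cideb, the CIDE protein of hepatocytes that loads lipid onto lipoproteins and droplets, was at 13.33 to 13.51 in Tg and 13.44 to 13.50 in non-Tg livers, a difference of -0.05 ± 0.09 (SE). Cidec, which fuses droplets and is induced by PPAR gamma, was at 5.97 to 7.34 in Tg and 6.66 to 7.99 in non-Tg livers, a difference of -0.44 ± 0.49 (SE). Cidea lay below the filter at 2.62 to 5.38 in Tg and 3.18 to 3.97 in non-Tg livers.

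Lipases release the stored fatty acids, and the groups overlapped for all of them. Pnpla2, adipose triglyceride lipase, differed by 0.17 ± 0.16 (SE), and Lipe, hormone-sensitive lipase, by 0.07 ± 0.25 (SE). G0s2, the inhibitor of Pnpla2, was at 11.42, 11.87 and 13.11 in Tg livers and 12.30, 12.28 and 10.64 in non-Tg livers. Tg 7 was the highest and non-Tg 3 the lowest of the 6, while the other Tg livers lay below the other non-Tg livers, and the difference was 0.40 ± 0.49 (SE). Pnpla3, the gene whose human form carries a known fatty liver risk, lay below the filter at 3.07 to 4.69 in Tg and 3.47 to 6.36 in non-Tg livers. Pnpla5, its neighbour on chromosome 15, was at 6.78 to 7.12 in Tg and 4.60 to 7.39 in non-Tg livers, a difference of 1.04 ± 0.67 (SE).

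**Figure D4:**
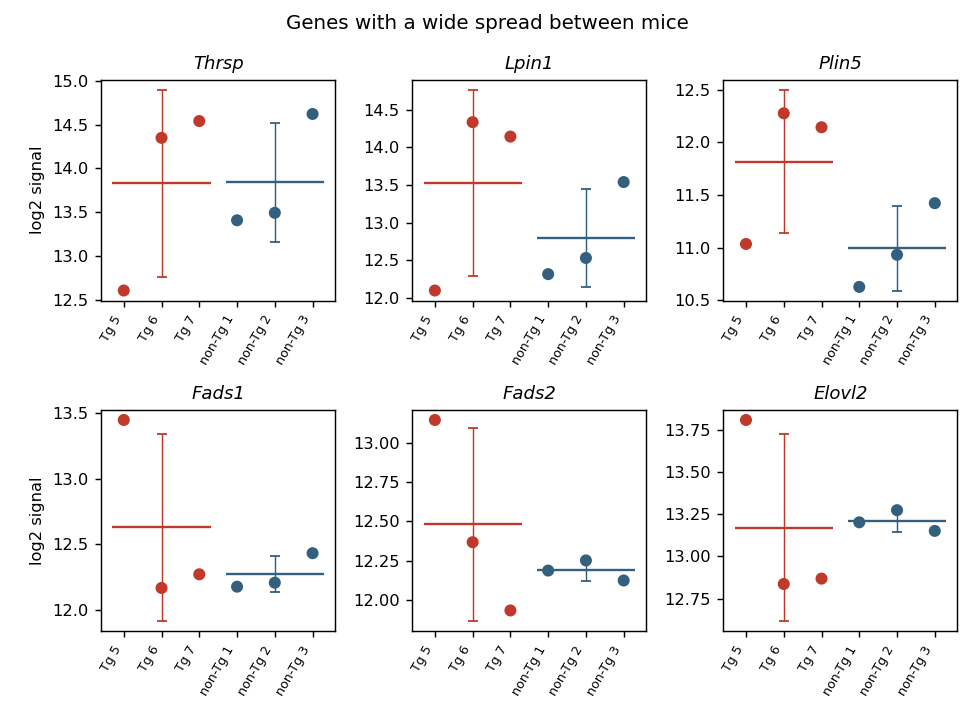
Points are the log2 signals of the 6 livers, Tg in red on the left and non-Tg in blue on the right, with group means and bars of 1 SD (n = 3), for 6 genes with a wide spread between mice. Tg 5 is the lowest Tg liver for Thrsp, Lpin1 and Plin5 and the highest of all 6 for Fads1, Fads2 and Elovl2.

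The spread between mice of 1 group exceeded the difference between groups for several of these genes. Among Tg livers, the range was 1.94 for Thrsp, 2.24 for Lpin1 and 1.24 for Plin5, and in each of the 3 genes Tg 5 was the lowest Tg liver and non-Tg 3 the highest non-Tg liver. Of the 41 tested genes, Tg 5 was the highest of the 6 livers in 9 and non-Tg 3 in 10, where over all tested genes Tg 5 was highest in 22.9% and non-Tg 3 in 13.8%. Tg 5 was the lowest liver in 8 of the 41 and non-Tg 2 in 11, beside 17.7% and 16.8% of all tested genes. Genes known to answer to fasting were read beside these: of 9 measured, 6 were higher and 3 lower in Tg livers, with summed log2 signals of 15.86 to 16.28 in Tg and 15.75 to 16.29 in non-Tg livers. Among them Cyp4a14 was lower (-2.11) and Cpt1a higher (0.19) without overlap. The groups overlapped for the others, such as Pck1 at 0.49, and none passed in limma. The feeding list had 6 measured genes, 4 of which are also among the 43, with 2 higher and 4 lower and sums of 14.49 to 15.41 in Tg and 14.96 to 15.50 in non-Tg livers. Feeding state and hour of death are not given per mouse, and their part in the spread was not tested.

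**Figure D5:**
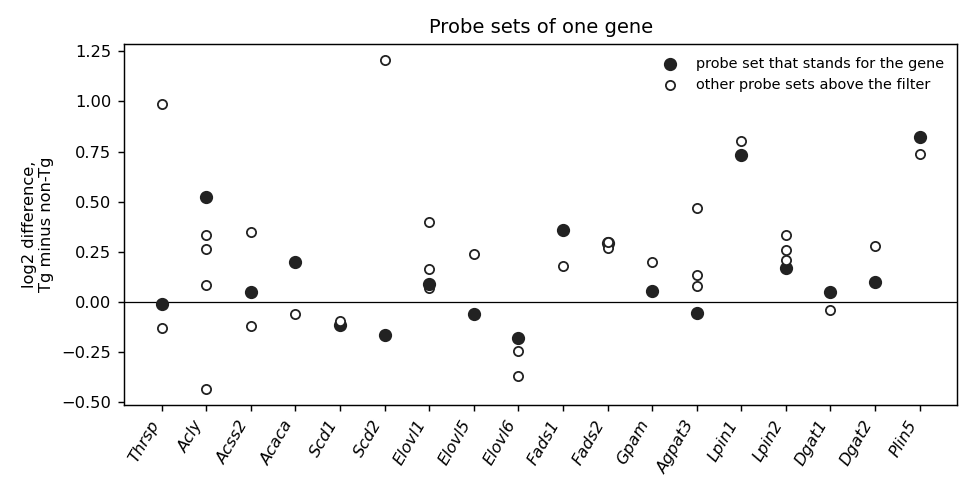
Each column is 1 of the 18 genes with several probe sets above the filter; filled points are the probe sets that stand for the genes and open points the others, placed by log2 difference (Tg minus non-Tg). Lpin1, Lpin2, Fads2, Elovl6 and Plin5 have all points on one side of 0, while Acly, Acss2, Thrsp, Scd2 and Agpat3 have points on both.

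The 43 genes had 86 probe sets, 72 of them above the filter. In 18 genes several probe sets lay above it; their differences had 1 sign in 10 genes and both signs in the other 8. Srebf1, Pparg, Mid1ip1 and Acacb had 1 probe set each above the filter, so their values rest on that one.

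The arrays fell into 2 sets by bioC, a bacterial transcript added as a control, whose mean log2 signal was 9.83 to 9.94 on Tg 5, Tg 6 and non-Tg 1 and 11.21 to 11.45 on Tg 7, non-Tg 2 and non-Tg 3. Within the lower and the higher set the difference was -0.43 and -0.30 for Srebf1, -0.79 and -1.04 for Pparg, and -0.52 and -0.43 for Mid1ip1. It was 0.64 and 0.39 for Acly, 0.77 and 0.76 for Acacb, 1.03 and 0.97 for Plin5, and 0.23 and 0.12 for Lpin2. Of these 7 genes only Plin5 could have changed sign between the sets, since the groups of the other 6 do not overlap, and in each set one group is down to 1 mouse. With the set of arrays as a block, 5 of the 41 had an unadjusted p under 0.05 in limma (Acacb, Acly, Mid1ip1, Plin5 and Pparg), beside 5.67% of all tested genes, and Srebf1 and Elovl7 no longer did. Elovl7 differed by 0.19 and 4.01, and Fads3 by 0.03 and -3.48, and were thus close to 0 in the lower set.

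Other genes of the same pathway were read from a list of 50, also chosen with earlier results of these data known. Of these, 45 had a probe set and 44 were tested. None passed in limma, and the groups of 5 did not overlap, 11.4% against 11.7%; 6 had an unadjusted p under 0.05, 13.6% against 6.05% of all tested genes. The median log2 difference was -0.03, with 19 higher and 25 lower in Tg livers. Of the 6, 3 had groups that did not overlap: Hsd17b11, a droplet protein of the hydroxysteroid dehydrogenase family (-0.26), Agpat1, a partner enzyme of Agpat2 (0.63), and Nr1h3 (0.30), with limma adjusted p from 0.735 to 0.787. A second Agpat1 probe set gave 0.05. The other 2 without overlap, also named after their values were seen, were Hacd3, a dehydratase of chain elongation, at 0.18 and Gpat3, an acyltransferase of the first step, at -0.28. The other 3 at an unadjusted p under 0.05, likewise named after their values were seen, were Me1, the malic enzyme that makes NADPH for synthesis (-0.64), Insig2, which holds SREBP in the endoplasmic reticulum (-0.46), and Cd36, a fatty acid transporter induced by PPAR gamma (-0.49). For Me1, Insig2 and Cd36 every further probe set above the filter was also lower in Tg livers, at -0.68 for Me1, -0.48 and -0.55 for Insig2, and -0.45 and -0.58 for Cd36. Within the lower and the higher set of arrays Cd36 differed by 0.01 and -0.87.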

How the data were processed

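Liver RNA of 6 mice was hybridized to Affymetrix mouse arrays; the labels' protocols give 5 µg of RNA as the input. The authors deposited 1 log2 signal per probe set and array, made with GCOS per the submitters' processing notes; the sources used here give neither its version nor its settings. The trimmed mean of the antilogged signals is 500.0 on every array, so arrays had been scaled to a common target. Median log2 signals ran from 6.49 to 6.74.

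From these values, 64 control probe sets and those with several or no gene symbols were set aside, and probe sets with a mean above the 40th percentile (5.63) were kept. Differences, SE and p-values come from limma 3.58.1 (lmFit, eBayes with intensity trend, 2-sided; R 4.3.3, statmod 1.5.0), adjusted by Benjamini and Hochberg over 12705 genes; values of genes below the filter come from the fit without it. In 20 simulated runs with 200 genes changed 2-fold or 4-fold, 52.1% of 2-fold and 80.3% of 4-fold changes were recovered. The simulated noise was normal and independent between genes, and many changed genes make the adjustment milder. In these data only 2 genes passed, so recovery of a true change here can be lower. Numbers of arrays limit the precision, and scanner files and detection calls were not used. Values of different probe sets were not compared as levels. Step medians cover all members, also those below the filter. Every member is named; values per mouse are given for those without overlap, at unadjusted p under 0.05, or with the highest signal of a step, and for some with a wide spread, chosen after their values were seen. From the other pathway genes, those with p under 0.05 and no overlap are named. The members and lists were chosen with earlier results of these data known. Promoter sequences are RefSeq's (GRCm38.p6). Plots used matplotlib 3.10.9 under Python 3.11.15.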

Additional observations from a re-analysis of the deposited data

How the results depend on the processing

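No gene of the 43 passed under any of the 18 alternatives run. The count of all genes that passed was 2, and became 6 with a filter at the 20th percentile, 5 with arrays centred on their medians, 4 with 16 and 6 with 64 added before the log, 4 with robust moderation and 4 with the set of arrays as a block. The 6 members without overlap became 6 to 12 when a mouse was left out. The 12 came without Tg 5 and without non-Tg 1, when 21.8% and 25.6% of all tested genes did not overlap. Without Tg 6, Tg 7 or non-Tg 3 the count was 9 of 41, beside 20.4%, 27.1% and 19.6% of all tested genes. Without non-Tg 2 it was 6 of 41, beside 18.6%. With centred arrays it was 4, without Acacb and Lpin2, beside 10.2%. With the mean of the kept probe sets it was 4, without Acly and Lpin2, beside 11.3%. After quantile normalization Scd1 was among the 6 and Srebf1 was not, beside 11.8%. The 7 members at an unadjusted p under 0.05 became 4 to 9 when a mouse was left out, with 4 without Tg 6 or without non-Tg 2 and 9 without Tg 5, beside 4.59%, 3.69% and 6.23% of all tested genes. The regulators' median was -0.49 with centred arrays and -0.53 to -0.27 without a mouse; that of de novo synthesis was 0.0580 with centred arrays, 0.0816 with the mean of the kept probe sets and 0.10 to 0.22 without a mouse. Glycerolipid assembly gave 0.16 with the mean of the kept probe sets and -0.00934 to 0.133 without a mouse. Elongation and desaturation gave 0.0912 with that mean and -0.128 to 0.0757 without a mouse, and lipid droplets -0.0568 to 0.148. The median of the 43 genes was -0.0240 with centred arrays and -0.00934 to 0.0659 without a mouse. Of the 43 genes, 24 changed sign in at least 1 alternative. The filters and moderation settings leave a gene's difference as it is, and leaving out a mouse cannot change the sign of a gene whose groups do not overlap, so the other 19 are not shown to be stable. The causes were not tested. No paired analysis was possible because the groups share no replicate numbers. With 3 mice per group, a gene that did not pass is not shown to be level.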
